A study of Arabidopsis thaliana with 12 samples.

Results

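The effect of the *pifq* mutations under a block of plastid translation was read from 6 libraries, 3 of *pifq* dark linc and 3 of WT dark linc, out of 12 libraries in the series. The libraries were picked by their group labels, and this choice and that of the gene lists were made with earlier results of these data known. Both groups were 3-day-old whole etiolated *Arabidopsis thaliana* seedlings of the Columbia background, germinated after a brief exposure to white light and grown in the dark on medium with 0.5 mM lincomycin, an antibiotic that stops translation on plastid ribosomes. *pifq* is a quadruple mutant of *PIF1*, *PIF3*, *PIF4* and *PIF5*, carried here by 1 line, and WT is its wild type. The other 6 libraries, called WT dark and *pifq* dark, were of the same genotypes, age and darkness without the drug, and their comparison is given side by side with the one under lincomycin, with which it shares no library. The comparison asks which part of the transcriptome still depended on the PIFs when the plastid could not make its own proteins.

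Phytochrome interacting factors (PIFs) are bHLH transcription factors that accumulate in darkness, bind G-box and PBE-box elements in promoters, and keep the seedling in its etiolated form with a long hypocotyl, a closed hook and small pale cotyledons. Light-activated phytochromes bind the PIFs and lead to their removal, so that a seedling without them partly looks light-grown in the dark and expresses genes of photosynthesis. Plastids whose gene expression is blocked send retrograde signals to the nucleus, which lower the expression of many of the same photosynthesis genes, with GUN1 as a plastid protein and the GLK transcription factors as nuclear members of the pathway.

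Levels are given as normalized CPM, which are 3′-end reads as CPM of the library total scaled by TMM, and since each read comes from 1 transcript end they were not divided by length. Total counts were between 11495950 and 17376719 per library in the 6 libraries, where 3 counts are on average 0.215 CPM in WT dark linc and 0.238 CPM in *pifq* dark linc. That floor and all counting intervals cover counting error only, since reads amplified by PCR are not independent molecules. Replicates of these 2 groups had Spearman correlations of 0.987 to 0.992 across genes and differed by more than counting noise, so none was a copy of another. SE denotes the standard error. Each gene was tested with edgeR's quasi-likelihood method, with p-values adjusted by Benjamini-Hochberg over all genes tested. SS marks an adjusted p of 0.05 or less, and SSTF marks in addition a change of 2-fold or more and an adjusted p of 0.01 or less. As the seedlings were taken whole, fewer cells of a type and less RNA per cell cannot be told apart.

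The transcripts of the mutated genes were read first, in each library. *PIF1* (AT2G20180) had 15.6, 17.4 and 16.2 normalized CPM in the WT dark linc libraries and 0, 0 and 0.164 in the *pifq* dark linc libraries. These are 702 counts against 2, a ratio of 310.3 with a 95% counting interval of 85.6 to 2567. *PIF3* (AT1G09530) had 132, 127 and 119.7 normalized CPM in WT and 2.004, 1.82 and 2.13 in *pifq*. *PIF5* (AT3G59060) had 4.86, 5.42 and 4.94 and 0.401, 0.379 and 0.985 in the same order. All 3 genes stood lower in every *pifq* library than in every WT library, with log2 fold changes of −5.99 (SE 0.16, adjusted p = 1.40e-16) for *PIF3* and −3.10 (SE 0.32, adjusted p = 8.38e-08) for *PIF5*. *PIF4* (AT2G43010) reads at the counted 3′ end were 8.75, 11.4 and 8.91 in WT and 11.9, 14.2 and 16.5 in *pifq*, a log2 fold change of 0.55 (adjusted p = 0.0101, or 0.0520 without WT dark linc replicate 1), so they were not lower. Where the *PIF4* mutation lies relative to the counted 3′ end is not given in the sources used here, and these reads do not check the label.

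Of 13557 genes tested under lincomycin, 509 (3.75%) were SSTF genes higher in *pifq* and 592 (4.37%) were SSTF genes lower in *pifq*. At the SS level, 2353 genes (17.4%) were higher and 2514 (18.5%) were lower. These shares are the background for the list counts given below. The levels of the 3 *pifq* libraries lay wholly above those of the 3 WT libraries for 2999 genes (22.1%) and wholly below them for 3181 (23.5%). Over all genes tested the median log2 fold change was −0.0036. Without the drug, 888 genes (6.60%) were SSTF higher and 838 (6.23%) were SSTF lower among 13456 genes tested. For this pair the study reports fewer genes higher and more genes lower in *pifq* under the same name. The study's lower set is much larger than its higher set, an imbalance not found here. The reason for the difference was not tested, and no other setting was run for this pair alone. The shares below hold for the counts found here. Of the 509 genes higher under lincomycin, 346 (67.98%) were also SSTF higher without it, which is 38.96% of the 888. Of the 592 lower genes, 498 (84.1%) were also SSTF lower without it, 59.4% of the 838. No gene was SSTF in opposite directions in the 2 comparisons.

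Followed from the other side, 654 of the 888 genes that were SSTF higher without the drug were SS higher with it, 4 were SS lower, 145 were not called and 85 were below the filter on low counts. Among the 838 genes that were SSTF lower without the drug, 762 were SS lower with it, 3 were SS higher, 33 were not called and 40 were below the filter. The effect of *pifq* with and without lincomycin was compared for each gene by the interaction of genotype and drug over all 12 libraries, where 14040 genes were tested. It was higher (more positive) with lincomycin for 172 genes (1.23%) and lower for 527 genes (3.75%). With library totals in place of TMM these counts were 1544 and 270, with the median interaction of all genes at 0.33 on the log2 scale in place of −0.0075. The share of higher calls was then 85.1% in place of 24.6%, so directions of the interaction hold relative to the bulk of genes as TMM sets it. The count of genes with a higher effect was 107 without WT dark linc replicate 3, 101 without *pifq* dark linc replicate 1 and 109 without *pifq* dark linc replicate 2. Of the 888 genes, the effect was called lower with the drug for 365 and higher for 7, and of the 838 genes it was called higher (less negative or positive) for 76 and lower for 4. Both sets were picked by a large effect without the drug, and that same effect enters the interaction. Their counts therefore lean toward a smaller effect with the drug and do not test for one.

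**Figure D1:**
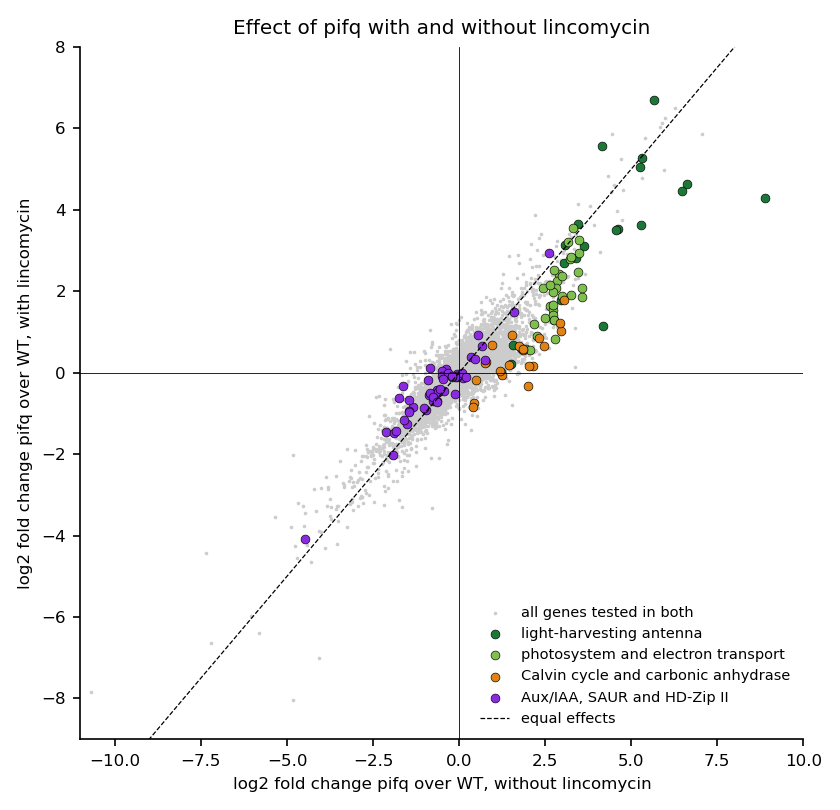
Each point is a gene tested in both comparisons, with the log2 fold change of *pifq* over WT without lincomycin on the x axis and with lincomycin on the y axis, and coloured points mark 4 gene lists. Antenna and photosystem genes lie in the upper right, most of them below the diagonal of equal effects, and Calvin cycle genes lie nearer to 0 on the y axis (median 0.42 with the drug against 1.77 without). The plotted hypocotyl growth lists lie on both sides of 0. Their medians with and without the drug were −0.43 and −0.53 for *Aux/IAA*, −0.33 and −0.71 for *SAUR* and −0.26 and −0.38 for HD-Zip II genes.

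*PIL1* and *BBX23* were among the 12 largest decreases that met the rule for named genes. *PIL1* (AT2G46970), a bHLH relative of the PIFs known from the shade response, had 77.1, 90.9 and 64.6 normalized CPM in WT and 0.882, 0.908 and 0.492 in *pifq*. *BBX23* (AT4G10240), a B-box factor, had 17.7, 11.4 and 13.9 in WT and 0, 0.0757 and 0.0821 in *pifq*, 609 counts against 2 and a ratio of 269 (95% counting interval 74.2 to 2228). Both genes stood far lower in every *pifq* library than in any WT library, and the log2 fold change of *PIL1* was −6.64 (SE 0.21, adjusted p = 1.55e-15). *HFR1* (AT1G02340), an atypical bHLH protein that binds PIFs and restrains them, had 81.5, 63.3 and 75.1 in WT and 8.096, 5.601 and 5.499 in *pifq*. Its groups stood far apart, with a log2 fold change of −3.52 (SE 0.16, adjusted p = 1.76e-13).

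The list of PIF relatives and bHLH partners had 13 members tested, of which 9 were SS lower and 1 was SS higher under lincomycin (2 higher without *pifq* dark linc replicate 3), 6 and 1 of them SSTF. Over all genes tested 18.5% were SS lower and 17.4% SS higher. *PIF6* fell by 2.14 on the log2 scale and *IBH1*, a bHLH inhibitor of growth promoters, fell by 1.84. *PIF7* (AT5G61270), a PIF outside the mutated quartet that is known for the shade response, went the other way: it had 0.243, 0.0763 and 0.115 normalized CPM in WT and 5.85, 9.46 and 9.03 in *pifq*. The WT libraries were thus at or under the floor of 3 counts while every *pifq* library was clearly above it. Without the drug the log2 fold change of *PIF7* was 5.39, beside 5.76 with it. *PRE1*, a bHLH growth promoter, did not pass the test (log2 fold change 0.015, adjusted p = 0.954).

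The B-box list, whose members act with HY5 and COP1 in light signalling, split in both directions. Of its 12 tested members 6 were SS higher and 4 SS lower, where the shares of all genes tested were 17.4% and 18.5%. *BBX15* (AT1G25440) had 0.972, 1.76 and 1.15 normalized CPM in WT and 13.5, 21.9 and 21.7 in *pifq* under lincomycin. That is a log2 fold change of 3.88 (SE 0.24, adjusted p = 3.29e-11) with the drug and 2.22 without it, and the difference between these effects passed the interaction test (1.66 on the log2 scale, adjusted p = 0.00214). *BBX25* (AT2G31380) had 0, 0.305 and 0.0575 in WT, 5 counts in all 3 libraries together, and 6.73, 6.96 and 8.29 in *pifq*. *BBX14* rose by 1.98 on the log2 scale and *BBX18* by 1.29. *BBX20* fell by 1.44 and *BBX21* by 0.53. *HY5* (AT5G11260), the bZIP factor that promotes photomorphogenesis, had 29.1, 32.4 and 27.1 in WT and 9.14, 11.5 and 10.3 in *pifq*, so its mRNA was lower in the mutant (log2 fold change −1.51, adjusted p = 1.69e-08). It was the only call among the 6 tested genes of the COP1, SPA, DET1 and HY5 group (1 other member was SS higher without WT dark linc replicate 2), where *COP1* had −0.18 (adjusted p = 0.311). Among 14 photoreceptor and partner genes tested, 4 were SS higher and 3 SS lower, beside 17.4% and 18.5% of all genes tested. *RPT2*, a phototropism signalling gene, rose by 3.27, while *PHYB* fell by 0.65, *CRY2* by 0.63 and *FHY1*, needed for nuclear import of phytochrome A, by 0.74.

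**Figure D2:**
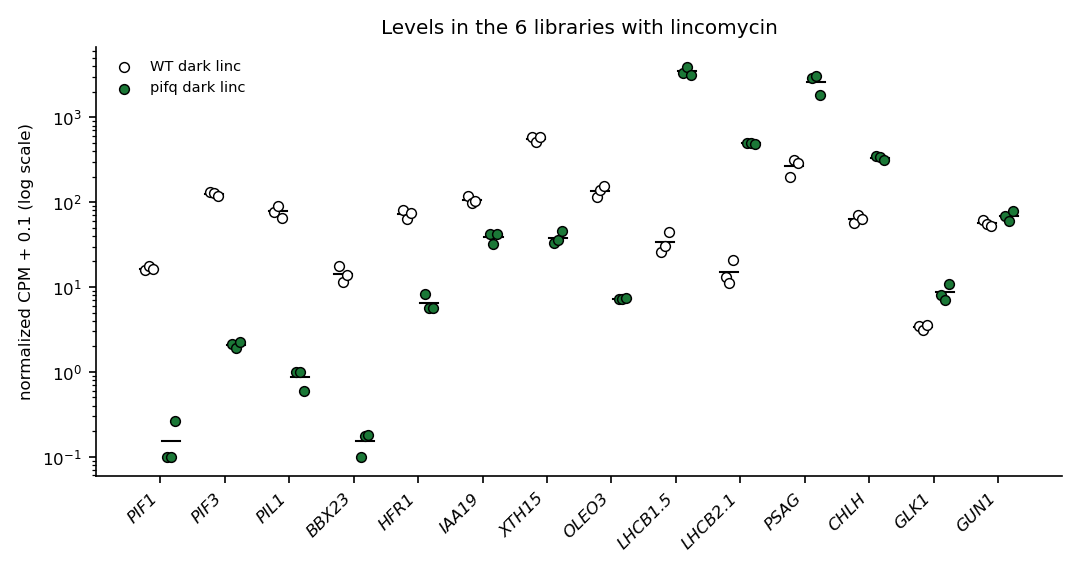
Normalized CPM plus 0.1 on a log axis for 14 genes in each of the 3 WT dark linc libraries (open circles) and the 3 *pifq* dark linc libraries (filled circles), with a bar at each group's mean. *PIF1*, *PIL1* and *BBX23* drop to near the floor in *pifq*, the antenna gene *LHCB1.5* rises from 33.5 to 3487 CPM, and no gene shown except *GUN1* has overlapping groups.

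In the lists of auxin-induced growth genes, members that fell outnumbered those that rose. Of 20 *Aux/IAA* genes tested, which encode repressors that are themselves induced by auxin, 11 were SS lower and 3 SS higher (background 18.5% and 17.4% of all genes; 1 SS higher without WT dark linc replicate 1 or *pifq* dark linc replicate 2). *IAA19* (AT3G15540), whose product acts in hypocotyl elongation and phototropism, had 117, 97.95 and 102 normalized CPM in WT and 42.5, 31.8 and 41.8 in *pifq*. Its groups did not overlap, and the log2 fold change was −1.45 (SE 0.13, adjusted p = 1.36e-08) with lincomycin and −2.13 without. *IAA17* had the second SSTF call of the list, with 942, 873 and 979.8 in WT and 402, 377 and 379 in *pifq*. *IAA1* rose most of the 3 higher members, by 0.91 on the log2 scale.

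Of 26 *SAUR* genes tested, small auxin-induced genes of which many promote cell expansion, 13 were SS lower and 3 SS higher. The shares of all genes tested were 18.5% and 17.4%. The list median was −0.33 on the log2 scale (all genes −0.0036) and −0.77 without the drug. *SAUR25* (AT4G13790) changed most, with 13.4, 11.3 and 12.1 normalized CPM in WT and 0.561, 0.681 and 0.903 in *pifq*. *SAUR22* and *SAUR23* fell by 1.48 and 1.42, although their 3′ ends share at least 90% identity with other *SAUR* genes, so that the counting could have split their reads. *SAUR12* and *SAUR14* rose, by 2.94 and 1.49.

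The shade-type HD-Zip II factor *ATHB2* (AT4G16780), a classic PIF-induced gene, had 28.7, 21.2 and 27.2 normalized CPM in WT and 6.33, 4.84 and 7.71 in *pifq* under lincomycin, a log2 fold change of −2.03 (SE 0.17, adjusted p = 4.28e-09), and 2 of its list's 4 tested members were SS lower (1 without WT dark linc replicate 1 or *pifq* dark linc replicate 2). In auxin synthesis, transport and conjugation, 10 of 17 tested members were SS higher and 3 SS lower (1 without *pifq* dark linc replicate 2). Over all genes tested 17.4% were SS higher and 18.5% SS lower, so the share of lower members was near the background. The influx carriers *LAX1* and *LAX2* rose by 1.49 and 1.04, and the conjugating enzymes *GH3.3* and *GH3.6* by 1.22 and 1.15. *TAA1* (AT1G70560), which makes the auxin precursor indole-3-pyruvate, had 37.03, 34.7 and 40.1 in WT and 14.7, 14.8 and 16.3 in *pifq*. Its decrease was larger with lincomycin (−1.29) than without (−0.48), with an interaction of −0.81 (adjusted p = 0.00566, or 0.0939 with library totals in place of TMM).

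Of 30 cell wall expansion genes tested, 10 were SS lower and 6 SS higher, beside 18.5% and 17.4% of all genes tested. *XTH15* (AT4G14130), a xyloglucan-modifying enzyme, had 593, 507 and 586 normalized CPM in WT and 32.9, 35.9 and 45.2 in *pifq*, a log2 fold change of −3.89 (SE 0.15, adjusted p = 2.18e-14). *XTH33*, *XTH5* and *XTH19* fell by 2.23, 2.18 and 1.87. *XTH6* (AT5G65730), which is not a member of that list, had 1.38, 2.44 and 2.47 in WT and 207, 204 and 168 in *pifq*. It was among the 12 largest increases that met the rule for named genes, with a log2 fold change of 6.49 with the drug and 6.26 without. The expansin genes *EXPA1* and *EXPA5* rose by 1.33 and 1.16, and for *EXPA1* the increase was smaller with lincomycin than without (interaction −0.88, adjusted p = 0.00535, or 0.0567 with library totals).

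Among other hormone lists, 10 of the 14 tested ethylene and apical hook genes were SS lower in *pifq* and 0 SS higher. The shares of all genes tested were 18.5% and 17.4%. *HLS1* (AT4G37580), which is required for hook formation, had 13.9, 13.97 and 20.9 normalized CPM in WT and 8.74, 6.28 and 6.402 in *pifq*, and *ACS5*, an ACC synthase, had 7.29, 6.57 and 7.53 and 1.12, 1.67 and 0.821. Both were lower in every *pifq* library, with log2 fold changes of −1.20 and −2.55, and *ACO1* and the receptor gene *ETR2* fell by 1.31 and 1.79. Of 16 brassinosteroid genes tested, 7 were SS lower and 0 higher (18.5% and 17.4% of all genes), none of them SSTF. Without *pifq* dark linc replicate 3, 1 was SS higher. The synthesis genes *ROT3* and *BR6OX2* stood at −0.92 and −0.58 and the inactivating *SOB7* and *BAS1* at −0.81 and −0.69. In gibberellin metabolism and signalling, 3 of 14 were SS higher and 3 SS lower, shares near the 17.4% and 18.5% of all genes tested. The last-step synthesis gene *GA3OX1* (AT1G15550) had 19.8, 14.3 and 14.6 in WT and 3.37, 2.801 and 2.71 in *pifq*, whereas *GASA6*, a gibberellin-regulated gene, had 11.8, 11.4 and 15.8 and 86.7, 87.7 and 94.8.

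Of 5 seed storage and oil body genes that passed the filter, 4 were SSTF lower, beside 4.37% of all genes tested. The list median was −2.67 on the log2 scale and −1.81 without the drug. Of the 13 members, 8 did not pass the filter. With no filter on low counts the list median was −0.60. *OLEO3* (AT5G51210), an oil body coat protein, had 116, 140.2 and 155 normalized CPM in WT and 7.21, 7.04 and 7.305 in *pifq*. The globulin gene *CRA1* (AT5G44120) had 28.8, 97.3 and 93.1 in WT and 13.9, 4.54 and 12.6 in *pifq*, so that its WT libraries varied more among themselves than those of *OLEO3* while the groups still did not overlap. Log2 fold changes were −4.25 (SE 0.15, adjusted p = 5.04e-15) for *OLEO3* and −2.83 (SE 0.34, adjusted p = 1.12e-06) for *CRA1*. Of 16 seed oil mobilization genes tested, 9 were SS lower and 0 SS higher, beside 18.5% and 17.4% of all genes tested. The glyoxylate cycle enzymes *ICL* and *MLS* were the SSTF members, and *ICL* (AT3G21720) had 4284, 6620.0 and 5770.0 in WT and 2873, 2193 and 1425 in *pifq*. The level of seed reserve transcripts moved with genotype in all 6 libraries, at 0.0176, 0.03102 and 0.0313% of counts in WT and 0.00475, 0.00245 and 0.00398% in *pifq*, and its part in the other differences was not tested.

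The sequences upstream of 5 of the genes described here are shown because they hold elements bound by PIFs (G-box, CACGTG, and PBE-box, CACATG) or the CCAATC element known for GLK factors, and they were chosen for holding them. Each is the 250 bases before the gene start in RefSeq's TAIR10.1 annotation, read 5′ to 3′ on the gene's strand, with matches on either strand in capitals. *OLEO3* lies on the plus strand of chromosome 5 (chr5:20819818-20820067), *IAA19* on the plus strand of chromosome 3 (chr3:5263751-5264000), *CHS* on the plus strand of chromosome 5 (chr5:4488226-4488475), *LHCB1.5* on the minus strand of chromosome 2 (chr2:14523569-14523818) and *LHCB2.1* on the minus strand of chromosome 2 (chr2:1824481-1824730).
OLEO3: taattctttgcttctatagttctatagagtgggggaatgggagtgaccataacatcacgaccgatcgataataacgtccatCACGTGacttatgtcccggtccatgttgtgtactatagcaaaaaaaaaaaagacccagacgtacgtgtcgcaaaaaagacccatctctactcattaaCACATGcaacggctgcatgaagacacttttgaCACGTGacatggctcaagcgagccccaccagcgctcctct
IAA19: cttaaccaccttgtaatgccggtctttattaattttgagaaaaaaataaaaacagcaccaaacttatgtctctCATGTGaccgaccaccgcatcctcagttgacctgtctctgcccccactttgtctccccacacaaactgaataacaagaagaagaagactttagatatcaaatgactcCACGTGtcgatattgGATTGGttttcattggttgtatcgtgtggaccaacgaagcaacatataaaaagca
CHS: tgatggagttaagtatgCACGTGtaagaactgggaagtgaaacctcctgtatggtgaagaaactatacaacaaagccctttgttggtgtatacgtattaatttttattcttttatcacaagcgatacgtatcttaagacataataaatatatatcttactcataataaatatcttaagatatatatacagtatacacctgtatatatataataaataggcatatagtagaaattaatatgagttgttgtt
LHCB1.5: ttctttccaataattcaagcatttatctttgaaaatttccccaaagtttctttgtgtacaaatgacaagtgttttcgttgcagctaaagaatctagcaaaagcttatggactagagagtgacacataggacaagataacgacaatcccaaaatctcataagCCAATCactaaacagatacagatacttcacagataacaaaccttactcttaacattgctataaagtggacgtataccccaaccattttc
LHCB2.1: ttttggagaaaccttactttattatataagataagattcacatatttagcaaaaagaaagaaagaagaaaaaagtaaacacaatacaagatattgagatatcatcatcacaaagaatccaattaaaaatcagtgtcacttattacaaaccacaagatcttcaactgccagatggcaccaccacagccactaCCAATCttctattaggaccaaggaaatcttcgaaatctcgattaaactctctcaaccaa
*OLEO3*, lower in *pifq*, holds a G-box pair with a PBE-box between them, *IAA19*, also lower, holds 1 match of each of the 3 elements (CATGTG and GATTGG are the PBE-box and CCAATC read on the other strand), and the antenna genes *LHCB1.5* and *LHCB2.1*, higher in *pifq*, hold CCAATC only, whereas other antenna promoters hold a G-box (among them *LHCB6*) or a PBE-box (among them *LHCB5*). In the window from 250 bases before to 50 bases after the start, a G-box was present in 7.68% of 27444 protein-coding promoters, in 9.28% of 13291 promoters of genes tested with lincomycin, in 11.5% of 494 SSTF higher genes and in 12.2% of 582 SSTF lower genes. The PBE-box was present in 12.9%, 12.9%, 17.8% and 19.9%, and CCAATC in 12.3%, 12.9%, 18.02% and 11.5%, in the same order. A match describes the sequence and is not a binding site. The 300-base windows of *PIL1*, *BBX23*, *HFR1*, *ATHB2* and *XTH6* hold none of the 3.

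Genes of the photosynthetic apparatus were higher in *pifq* than in WT with plastid translation blocked in both. Of 19 light-harvesting antenna genes tested, which encode the chlorophyll-binding proteins of the antennae, 18 were SS higher and 17 SSTF higher. The shares of all genes tested were 17.4% and 3.75%. The list's median log2 fold change was 3.52 (all genes −0.0036) beside 4.16 without the drug. *LHCB1.5* (AT2G34420) had 25.9, 30.3 and 44.3 normalized CPM in WT and 3371, 3972 and 3117 in *pifq*, a log2 fold change of 6.70 (SE 0.22, adjusted p = 1.55e-15). *LHCB1.3* (AT1G29930) had 72.1, 89.2 and 102 in WT and 4446, 4747 and 3251 in *pifq*. These were the highest antenna levels in *pifq* dark linc among the genes named, and for both the effect of *pifq* was larger with lincomycin than without (interaction 1.04, adjusted p = 0.0272, and 1.41, adjusted p = 0.0353). The interaction of *LHCB1.5* was no longer called without replicate 2 or 3 of WT dark, 1 or 2 of WT dark linc, or 1 or 2 of *pifq* dark linc (adjusted p 0.0517 to 0.104). That of *LHCB1.3* was not called with DESeq2 (adjusted p = 0.0573), nor without replicate 2 of WT dark, 1, 2 or 3 of WT dark linc, 1 or 3 of *pifq* dark, or 1 or 2 of *pifq* dark linc (0.0528 to 0.113), so both stand at the edge of the threshold.

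*LHCB1.4* (AT2G34430), of the same subfamily, had 6.64, 5.802 and 20.98 in WT and 184, 256 and 230.4 in *pifq*, and its effect was smaller with the drug, 4.28 against 8.89 (interaction −4.60, adjusted p = 1.88e-05). The 3′ ends of the *LHCB1* genes share at least 90% identity, so reads could have been split among them, and the same holds between *LHCB2.1* and *LHCB2.2*. *LHCB2.1* (AT2G05100) had 12.9, 10.9 and 20.8 in WT and 504, 504 and 482 in *pifq*, and *LHCB2.2* had 9.72, 9.93 and 18.1 and 451, 544 and 482. The interactions of this pair were −0.20 (SE 0.26) and −0.038 (SE 0.27) and did not pass the test. The exception among the antenna genes was *LHCA5*, a minor antenna protein of photosystem I, at 0.21 with lincomycin (adjusted p = 0.323) and 1.495 without. Of 20 antenna genes tested for the interaction, the *pifq* effect was called lower with lincomycin for 10 and higher for *LHCB1.5* and *LHCB1.3* only. The shares of all genes tested for it were 3.75% lower and 1.23% higher.

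All but 1 of 33 nuclear genes for photosystem and electron transport subunits were SS higher in *pifq* under lincomycin, 27 of them SSTF. The shares of all genes tested were 17.4% and 3.75%. The list median was 1.92 beside 2.77 without the drug. *PSBQ2* (AT4G05180), a subunit of the oxygen-evolving complex, had 18.2, 25.4 and 21.96 normalized CPM in WT and 220.3, 302 and 248 in *pifq*. *PSAG* (AT1G55670), a photosystem I subunit, had 196, 318 and 292 and 2886, 3030.0 and 1841. The groups stood well apart for both genes, with log2 fold changes of 3.55 and 3.27, and the photosystem I genes *PSAK* and *PSAH2* followed at 3.198 and 2.95. *PSBS*, the photoprotective subunit of photosystem II, was not called, with 79.8, 102 and 113 in WT and 106, 109 and 83.5 in *pifq*. It had 1.21 without the drug, and the interaction was −1.19 (adjusted p = 0.00509). *PSBS* was 1 of 21 members, of 33 tested, whose effect was called smaller with lincomycin, against 0 called larger. The shares of all genes tested for the interaction were 3.75% lower and 1.23% higher.

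**Figure D3:**
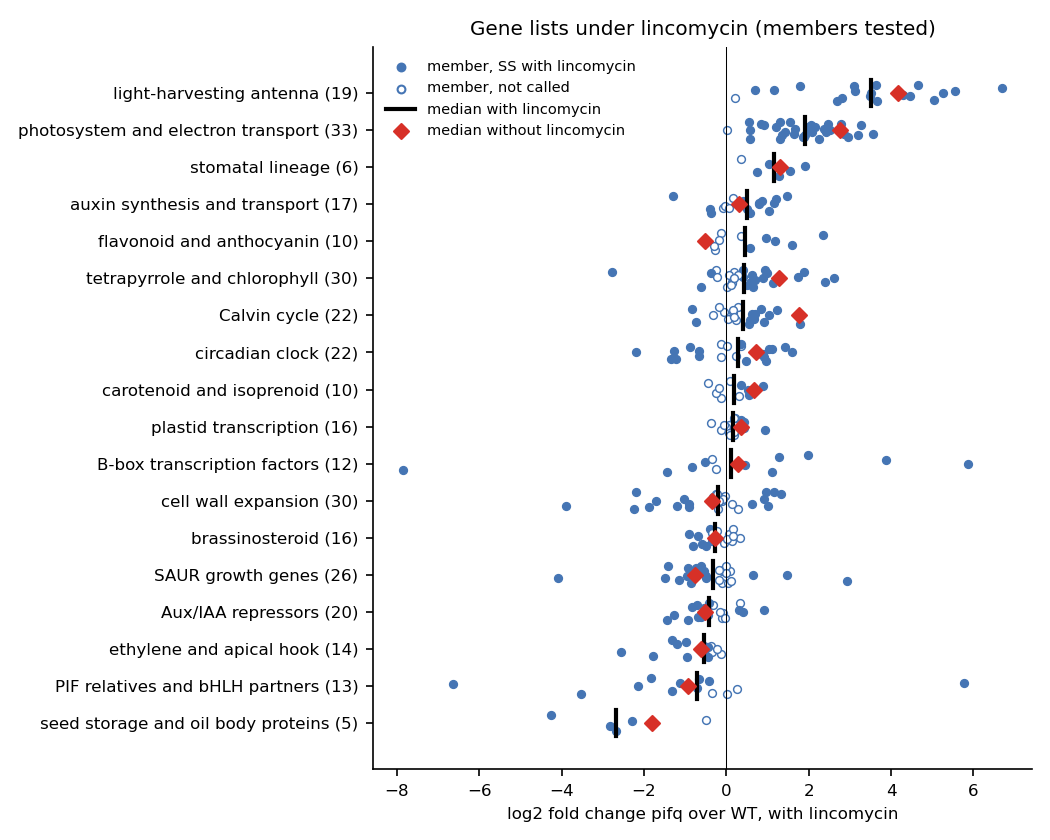
Log2 fold change of *pifq* over WT under lincomycin for every tested member of 18 gene lists, with filled points for SS members and open points for the others, a black bar at the list's median and a red diamond at its median without lincomycin. Antenna genes have the highest median (3.52) and seed storage genes the lowest (−2.67 over the 5 members that passed the filter, −0.60 with no filter), and the 2 medians lie farthest apart for the Calvin cycle list.

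The Calvin cycle and carbonic anhydrase genes, which encode the stromal enzymes of carbon fixation, had smaller log2 fold changes with the drug than without at the median. Of 22 tested, 11 were SS higher, 2 SS lower and 3 SSTF higher, where 17.4% of all genes tested were SS higher and 18.5% SS lower. The list median was 0.42 against 1.77 without the drug. For 19 of 22 members the *pifq* effect was lower (less positive or negative) with lincomycin by the interaction test, beside 3.75% of all genes tested. *RBCS3B* (AT5G38410), a Rubisco small subunit gene whose 3′ end is near-identical to those of *RBCS1A* and *RBCS2B*, so that reads could have been split among them, had 1174, 1521 and 1511 normalized CPM in WT and 1173, 1218 and 989.6 in *pifq*, and its groups overlapped. Its log2 fold change was −0.32 (adjusted p = 0.0939, or 0.0234 with library totals) beside 2.00 without the drug, an interaction of −2.31 (adjusted p = 5.73e-05). *RBCS2B* and *CA2*, a carbonic anhydrase, fell by 0.75 and 0.84 with the drug and were not called without it (0.44 and 0.42). *GAPA2*, *CA1* and *RCA*, the Rubisco activase gene, were the SSTF members, at 1.78, 1.23 and 1.03, against 3.04, 2.93 and 2.96 without the drug.

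Of 30 tetrapyrrole genes tested, 16 were SS higher and 3 SS lower under lincomycin, 6 and 1 of them SSTF. Over all genes tested 17.4% were SS higher and 18.5% SS lower. *CHLH* (AT5G13630), the large subunit of magnesium chelatase, had 56.2, 70.4 and 62.8 normalized CPM in WT and 347, 345 and 311 in *pifq*, its regulator *GUN4* rose by 2.62 and the cyclase gene *CRD1* by 1.90. For these 3 genes the interaction did not pass the test (−0.36, 0.29 and −0.42). *HEMA1* (AT1G58290), which encodes glutamyl-tRNA reductase at the entry of the pathway, had 59.7, 62.2 and 53.4 in WT and 119, 138 and 126 in *pifq*. It rose by 1.13 with the drug and 2.73 without, an interaction of −1.60 (SE 0.16, adjusted p = 1.62e-05), and *HEMC* (−1.42) and *CAO* (−1.26), for porphobilinogen deaminase and chlorophyllide *a* oxygenase, also had smaller effects. *PORA* (AT5G54190), the protochlorophyllide reductase of etiolated tissue, had 442, 571 and 517 in WT and 70.5, 80.1 and 71.4 in *pifq*, and *PORB* fell by 0.62.

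Of 5 regulators of chloroplast development 4 were tested, and 3 of them were SS higher in *pifq*, beside 17.4% of all genes tested. *GLK1* (AT2G20570), an activator of antenna and chlorophyll genes, had 3.404, 3.05 and 3.45 normalized CPM in WT and 8.02, 6.96 and 10.7 in *pifq*, and *GLK2* (AT5G44190) had 6.16, 2.901 and 6.15 and 10.7, 10.07 and 12.97. Neither gene's groups overlapped, with log2 fold changes of 1.36 (SE 0.20, adjusted p = 1.74e-05) and 1.14 (SE 0.21, adjusted p = 0.000247). Without the drug these were 0.99 and 1.47, and neither interaction passed the test (0.37, adjusted p = 0.631, and −0.34, adjusted p = 0.735). *GUN1* (AT2G31400) had 62.1, 55.5 and 52.5 in WT and 68.2, 59.6 and 78.5 in *pifq*, and its groups overlapped (0.28, adjusted p = 0.0851). Of 16 genes for plastid sigma factors and polymerase-associated proteins 4 were SS higher (2 without WT dark linc replicate 1), none SSTF, led by *SIG1* at 0.94. Without *pifq* dark linc replicate 3, 1 was SS lower. Over all genes tested 17.4% were SS higher and 18.5% SS lower, so this count lay near the background. Of 10 carotenoid and plastid isoprenoid genes 4 were SS higher, beside 17.4% of all genes tested. *DXS* stood at 0.55 and *PSY*, the first committed step to carotenoids, at 0.53. In that list 1 was SS lower with the exact test, or without WT dark linc replicate 2 or *pifq* dark linc replicate 1 or 3. With no filter on low counts 2 were SS lower. *PSY* and *DXS* had smaller effects with the drug than without (−1.30, adjusted p = 0.00074, and −1.02, adjusted p = 0.00218). *ELIP2*, an early light-induced protein gene, fell by 3.44, while the one-helix gene *OHP2* rose by 0.44.

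Gene-Set PIF-RS is the study's list of 343 genes repressed by both the PIFs and retrograde signals, defined on published array data and not on these libraries. Of its 293 members tested under lincomycin, 240 were SS higher in *pifq*, 1 was SS lower and 131 were SSTF higher. The shares of all genes tested were 17.4%, 18.5% and 3.75%. The list's median log2 fold change was 0.91 beside 1.89 without the drug, and 50 members did not pass the filter on low counts. Of 328 members tested for the interaction, the *pifq* effect was called lower with lincomycin for 176 and higher for 2. The shares of all genes tested for it were 3.75% and 1.23%. The count of higher members was 1 without replicate 2 of WT dark, 1, 2 or 3 of WT dark linc, 1 or 3 of *pifq* dark, or 1 or 2 of *pifq* dark linc. Of 41 tested members that the study marks as bound by PIFs 33 were SS higher and 22 SSTF higher, with a median of 1.11, and of 252 others 207 were SS higher and 109 SSTF higher, with a median of 0.90. No test was made of that difference.

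Shares of all counts show how much RNA these lists made up. Antenna genes took 0.0971, 0.106 and 0.113% of the counts in the WT dark linc libraries and 1.44, 1.72 and 1.56% in the *pifq* dark linc libraries. Without lincomycin the means were 0.659% ± 0.08899 and 11.7% ± 0.5596 (SD, n = 3). Gene-Set PIF-RS took 1.21, 1.27 and 1.29% in WT and 4.01, 4.54 and 4.34% in *pifq* with the drug, and 3.22% ± 0.355 and 21.3% ± 1.03 without it. For both lists the groups under lincomycin did not overlap, and the two-sided exact permutation p was 0.1, the smallest that 3 against 3 libraries can give. The share in *pifq* dark linc lay above that of WT dark and far below that of *pifq* dark.

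**Figure D4:**
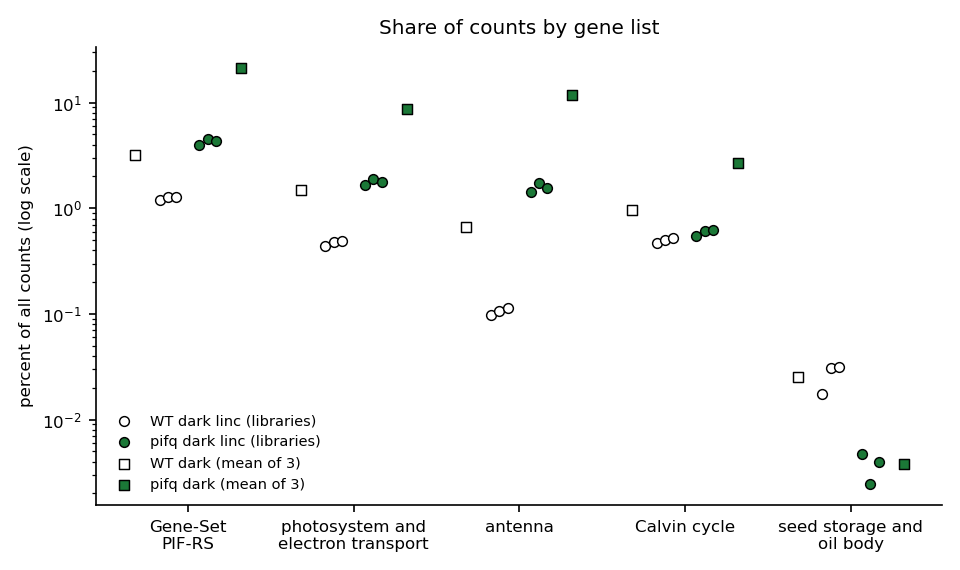
Percent of all counts, on a log axis, taken by 5 gene lists in each of the 3 WT dark linc libraries (open circles) and the 3 *pifq* dark linc libraries (filled circles), with the means of WT dark (open squares) and *pifq* dark (filled squares) beside them. Under lincomycin the antenna list goes from about 0.105% to 1.57% and Gene-Set PIF-RS from 1.25% to 4.299%, whereas seed storage genes go down.

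Of 6 stomatal lineage genes tested, with 5 others below the filter, 5 were SS higher and 4 SSTF higher. The shares of all genes tested were 17.4% and 3.75%. *FAMA*, a guard cell factor, rose by 1.54 and *TMM*, a receptor-like protein of stomatal patterning, by 1.03. Without *pifq* dark linc replicate 2 or 3, 3 of the list were SS higher. The genes of this list took 0.00371, 0.00342 and 0.003505% of counts in WT and 0.00631, 0.00771 and 0.00833% in *pifq*, and the part of such cells in the other differences was not tested. Of 6 root hair genes 1 passed the filter, with no call. Of 22 clock genes tested, 10 were SS higher and 7 SS lower, beside 17.4% and 18.5% of all genes tested. The coactivator genes *LNK2*, *LNK3* and *LNK4* rose by 1.42, 1.60 and 1.11, and the evening genes *NOX* and *LUX* fell by 2.19 and 1.22. *NOX* (AT5G59570) had 40.9, 53.1 and 52.1 normalized CPM in WT and 10.2, 12.1 and 9.69 in *pifq*.

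Flavonoid genes were close to the filter on low counts, and 4 of the 10 tested with lincomycin were not tested without it. Of the 10, 5 were SS higher and 0 lower (17.4% and 18.5% of all genes tested), with a median of 0.46. Without WT dark linc replicate 2 there were 2 SS lower, and the median was 0.28 without *pifq* dark linc replicate 2 and turned to −0.21 with no filter on low counts. Over the 6 members tested in both comparisons the medians were −0.15 with and −0.51 without the drug. *CHS* (AT5G13930), chalcone synthase at the entry of flavonoid synthesis, had 18.9, 18.3 and 19.2 in WT and 33.5, 28.4 and 21.9 in *pifq*. It rose by 0.57 (SE 0.14, adjusted p = 0.00339) with lincomycin and stood at −2.01 without it, where it had 19.9 ± 0.649 in WT dark and 4.94 ± 0.275 in *pifq* dark (mean ± SD, n = 3), so the effect changed sign (interaction 2.58, SE 0.21, adjusted p = 1.73e-06). *CHI*, the next enzyme, had 3.57, 5.96 and 5.69 in WT and 24.2, 26.6 and 26.9 in *pifq*, and rose in both comparisons (2.34 with and 1.68 without the drug). *UPOX* (AT2G21640), a mitochondrial protein gene induced by oxidative stress, had 31.4, 35.6 and 33.6 in WT and 47.9, 46.3 and 49.98 in *pifq*. Its effect also changed sign, 0.52 with and −1.43 without lincomycin (interaction 1.95, adjusted p = 2.03e-05), whereas the alternative oxidase gene *AOX1A* fell by 0.54 with the drug.

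The remaining genes with the smallest interaction p went in both directions. *MLP423* (AT1G24020), of the major latex protein family, had 18.4, 16.03 and 15.3 normalized CPM in WT and 90.5, 87.3 and 89.1 in *pifq*, a larger increase with the drug (2.43) than without (1.28). AT3G53980 rose by 1.38 with lincomycin and was not called without it (log2 fold change 0.043). AT3G18530 and AT2G47780 fell less with lincomycin, −2.02 against −4.82 and −0.57 against −2.34, and the 3′ end of AT3G18530 is near-identical to that of another gene. On the other side, AT3G21480 had 5.67, 6.79 and 5.75 in WT and 7.05, 6.05 and 6.98 in *pifq*, with no effect called under lincomycin and 3.37 without. *BCH2*, a carotene hydroxylase gene, was below the filter with the drug, at 1.78, 1.91 and 3.33 in WT and 0.962, 0.5298 and 0.575 in *pifq*, and rose by 3.43 without it. AT4G01870 changed sign, −1.07 with the drug and 0.53 without (interaction −1.60, adjusted p = 6.36e-06). AT5G59080 stood at 39.6 CPM in both groups under lincomycin and rose by 1.74 without it.

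The largest changes of all genes under lincomycin included several that stood apart from these lists. *QQS* (AT3G30720), an orphan gene tied to starch and protein content, had 1.78, 1.15 and 1.84 normalized CPM in WT and 78.9, 120.3 and 141 in *pifq*. AT4G28780 had 1.297, 1.45 and 1.03 in WT and 113, 97.9 and 77.9 in *pifq*, and AT1G04660 had 2.43, 2.44 and 2.3 and 182, 155 and 136. For these 3 genes log2 fold changes were 6.13, 6.27 and 6.04 with the drug and 5.90, 5.99 and 5.84 without, with no interaction called. *ESM1*, which acts in glucosinolate breakdown, rose by 4.97. On the lower side, AT5G04120 had 50.7, 63.2 and 47.3 in WT and 0.561, 0.303 and 1.07 in *pifq*, and *RD20* (AT2G33380), a drought-induced caleosin gene, had 10.4, 13.1 and 11.2 and 0.321, 0.5298 and 0.739. The *pifq* levels of both genes were low, and their log2 fold changes were −6.38 and −4.43.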

How the data were processed

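Libraries of polyA-tailed 3′-end fragments were made from 3 biological replicates per group. Reads were mapped by the authors with Bowtie (version 0.12.7 in the submitters' processing notes) to representative TAIR10 transcripts, on the coding strand of the last 500 bases and with a single mismatch allowed. The deposited values are raw counts for 33601 AGI loci and were not normalized. The labels mention technical duplicate runs, which are 1 column per library here.

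Counts were normalized by TMM and tested with edgeR 4.0.16 in R 4.3.3 (quasi-likelihood test, Benjamini-Hochberg adjustment), using the 6 lincomycin libraries and genes with 5 CPM or more in 2 or more of them, the filter of the study's methods. Standard errors are the size of the log2 fold change over the root of its F statistic. The interaction used all 12 libraries with the same filter. Shares of counts were compared by two-sided exact permutation tests. DESeq2 1.42.0 and the other alternatives were run on the same counts, and the tests were checked on simulated counts. Near-identical 3′ ends are those with at least 90% identity over 100 bases or more of the last 500. Symbols and upstream sequences come from RefSeq's TAIR10.1 annotation (32835 loci matched).

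The members and gene lists were chosen with earlier results of these data known. Genes named are the 12 largest SSTF changes in each direction with non-overlapping levels and at least 10 CPM, up to 4 SS members per direction and 2 uncalled members of each list, the 6 genes and 3 list members per direction with the smallest interaction p, the mutated genes, *GLK1*, *GLK2*, *GUN1* and *PP2A*. Not every gene that met this rule is described.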

Additional observations from a re-analysis of the deposited data

Results flagged for a closer look

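For 35 of the genes named, the effect of *pifq* differed between seedlings with and without lincomycin by the interaction test (adjusted p of at most 0.05), and each difference is given here as the log2 fold change with the drug minus that without it. No explanation was tested.

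Among antenna genes *LHCB1.3* had 1.41, *LHCB1.5* 1.04, *LHCB1.4* −4.60 and *LHCA5* −1.29, and *PSBS* of photosystem II had −1.19. The antenna genes went in both directions, and the *LHCB1* genes have near-identical 3′ ends. The calls of *LHCB1.3* and *LHCB1.5* were lost when any of several single libraries was left out, as described above. In the Calvin cycle list *RBCS3B* had −2.31, *RCA* −1.93, *CA1* −1.70, *GAPA2* −1.26, *CA2* −1.25, *RBCS1A* −1.19 and *RBCS2B* −1.18, where *RBCS2B* and *CA2* fell with the drug and were not called without it, *RBCS3B* was not called with it, and *RBCS1A*, *RCA*, *CA1* and *GAPA2* rose less with it. In pigment synthesis *HEMA1* had −1.60, *HEMC* −1.42, *CAO* −1.26, *PSY* −1.30, *DXS* −1.02 and *BCH2* −5.23, and the one-helix gene *OHP2* had −1.29.

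Outside the plastid, *CHS* had 2.58 and *UPOX* 1.95, with effects of opposite sign in the 2 comparisons, as had AT4G01870 with −1.60. *BBX15* had 1.66, *MLP423* 1.15, AT3G53980 1.34, AT2G47780 1.77 and AT3G18530 2.80. AT3G21480 had −3.23, AT5G59080 −1.74, *TIP3;2* −2.54, *EXPA1* −0.88 and *TAA1* −0.81. *PIF1* had −3.22, with 2 counts in all in *pifq* dark linc.

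*IAA19* had 0.69 (adjusted p = 0.0351), lost without replicate 1 or 3 of WT dark, 2 or 3 of WT dark linc, 1 or 2 of *pifq* dark, or 1 or 3 of *pifq* dark linc (adjusted p 0.0632 to 0.106). *RD20* had 2.93 (adjusted p = 0.0382), lost without replicate 1 or 3 of WT dark linc, 1, 2 or 3 of *pifq* dark, or 2 or 3 of *pifq* dark linc (0.0589 to 0.145) and with DESeq2 (0.0685). The mean level of *RD20* in *pifq* dark was 0.053 normalized CPM, too low to size its effect without the drug.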

How the results depend on the processing

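Without a filter on low counts the test called 869 genes SSTF higher and 930 SSTF lower, over 23434 genes in place of 13557. The other settings for the *pifq* effect under lincomycin were RLE size factors, library totals, DESeq2, the exact test of edgeR, a fit over all 12 libraries, the replicate number as a block, no genes over 1% of the counts, and 0.05 in place of 0.01 as the limit for SSTF. Under these the counts stayed within 1.5 times of 509 and 592, and the block gave 504 and 591. Same-numbered libraries of the 2 groups did not deviate together (r −0.264, 0.258 and −0.216), so the numbers are not taken as pairs. With 1 library left out in turn, 480 to 524 genes were SSTF higher and 547 to 626 SSTF lower, and 1767 to 2446 were SS higher and 1890 to 2570 SS lower. The interaction was called higher for 172 genes and lower for 527. It gave 1544 and 270 with library totals and 264 and 701 with the replicate block. With 1 of the 12 libraries left out it gave 101 to 214 higher and 389 to 563 lower. With library totals the interaction was still called lower for 16 Calvin cycle, 18 photosystem and 8 antenna genes. It was lost there for *LHCA5*, *EXPA1* and *TAA1* (adjusted p 0.0641, 0.0567 and 0.0939). Of the 122 named genes tested under lincomycin, none changed sign in a called effect. The 3 replicates per group limit the precision, and genes near the filter have few counts.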

Other observations

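Aquaporins, the water channels of the tonoplast and plasma membrane, moved in both directions under lincomycin, with 7 of 20 tested members SS lower in *pifq* (4 without *pifq* dark linc replicate 2) and 4 SS higher (18.5% and 17.4% of all genes tested). *PIP2;4* (AT5G60660) had 364, 265 and 329.8 normalized CPM in WT dark linc and 102, 71.5 and 88.2 in *pifq* dark linc, and *PIP2;8* (AT2G16850) had 9.48, 10.3 and 11.9 and 41.8, 39.1 and 33.8. The groups did not overlap for either gene, with log2 fold changes of −1.87 and 1.85. *TIP3;2* (AT1G17810), an aquaporin of the seed protein storage vacuole, had 5.27, 7.79 and 6.21 in WT and 0.962, 0.379 and 0.575 in *pifq*, and fell more with lincomycin than without (−3.32 against −0.78).

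Of 17 plastid-encoded genes that passed the filter under lincomycin, out of 133 in the table, 12 were SS higher in *pifq* and 0 lower. The shares of all genes tested were 17.4% and 18.5%, and the list's median log2 fold change was 0.71. With no filter on low counts 22 were SS higher and 3 SS lower. There were 7 SS higher and 1 SS lower without *pifq* dark linc replicate 2, 1 SS lower without WT dark linc replicate 3, and 6 SS higher with all 12 libraries in the fit. They are read here only as far as the capture of polyA tails took them up, and their shares of counts overlapped, at 0.0969, 0.0828 and 0.0534% in WT and 0.08604, 0.126 and 0.0819% in *pifq*. Among 4 mitochondrion-encoded genes tested 2 were SS lower, beside 18.5% of all genes tested. Of 8 common reference genes tested 6 were not called, among them *PP2A*, with which the study normalized its quantitative PCR and which had 87.4, 113 and 91.8 in WT and 113, 102 and 100.3 in *pifq* (0.11, adjusted p = 0.521).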
